A study of Mus musculus with 6 samples.

Results

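Bulk RNA sequencing of mouse kidney was examined for 35 genes of cholesterol synthesis, sensing, transport, lipoprotein assembly and export. They were taken by name from a list and all 35 were found among the 17550 genes of the deposited table. The list holds 18 enzymes of synthesis and 17 other genes. The groups were 3 libraries from KC-Tie2 kidneys and 3 from Control kidneys. KC-Tie2 mice are a model of psoriasis in which keratinocytes of the skin carry a transgene for the receptor Tie2. The labels give the other genotype only as Control, and name no promoter, strain, sex, age or litter for either group. Kidneys of both groups were flushed with saline before Trizol extraction, and the libraries hold polyadenylated RNA. Separate animals are not named in the labels, and the p-values below therefore cover only the variation among these samples, which may be technical.

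Cells build cholesterol from acetyl-CoA through mevalonate, farnesyl diphosphate, squalene and lanosterol. When membranes hold little sterol, the escort protein SCAP releases SREBP transcription factors from the endoplasmic reticulum, and these raise the enzymes of synthesis. INSIG proteins hold SCAP back when sterol is ample. Liver X receptors (LXR) answer to oxidized sterols and raise genes of export such as Abca1 and Abcg1. In the kidney, proximal tubule cells take up filtered lipoproteins and also express the lipoprotein gene Apob and its loading protein Mttp.

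Values are normalized counts, that is estimated counts divided by 1 factor per library. Judged from the step between low values, the libraries held about 21300000, 29500000 and 27700000 estimated counts in KC-Tie2 replicates 1 to 3 and 24200000, 29400000 and 18800000 in Control replicates 1 to 3. All 35 genes passed the filter on low values (a mean of 10 or more), the lowest single value among them being 123 for Pmvk. Log2 fold changes are KC-Tie2 minus Control on the log2(value + 1) scale, given as estimate ± SE. A gene is said to have risen or fallen where limma's adjusted p, taken over all 17539 genes tested, was under 0.05. Of all genes tested, 1.69% passed that threshold, 0.855% higher and 0.838% lower in KC-Tie2 kidneys. Markers of kidney were abundant in every library. Umod, the uromodulin of the thick ascending limb, had 62794 to 81134 in KC-Tie2 and 60188 to 64016 in Control kidneys, and the proximal tubule phosphate transporter Slc34a1 had 87701 to 97004 in KC-Tie2 and 103856 to 113719 in Control kidneys.

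Enzymes of cholesterol synthesis were higher in KC-Tie2 kidneys at 6 of 18 genes and lower at none. The 6 that rose were Pmvk, Fdft1, Sqle, Msmo1, Nsdhl and Dhcr7, by 1.32- to 1.75-fold. None of the 17 other genes rose at the threshold, although Apoe was 1.58-fold higher without overlap of the groups (limma adjusted p = 0.0814). Apob, Mttp and Abca1, 3 of the 17, fell by 1.31- to 1.51-fold. The share of enzymes that rose was 33.3%, against 0.855% of all genes tested, and the share of the other genes that fell was 17.6%, against 0.838% of all genes tested. The median log2 fold change was 0.18 for the enzymes, 0.03 for the other members and 0.00 for all genes tested. The genes were listed with earlier results of these data known, so these shares describe the list and were not tested as a set.

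**Figure D1:**
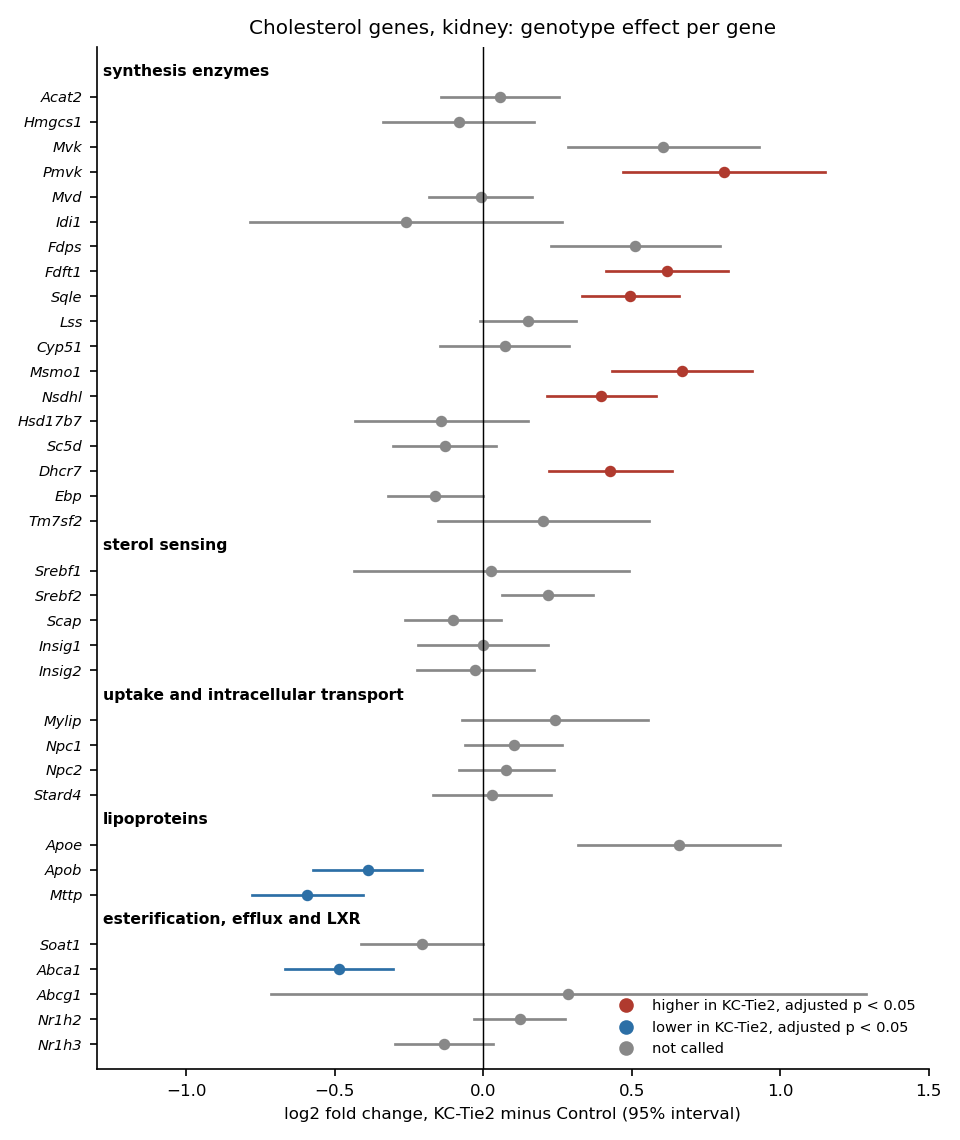
Log2 fold change (x axis, KC-Tie2 minus Control) with its 95% interval from limma for each of the 35 genes (y axis), by role, with n = 3 libraries per genotype. The 6 red points are enzymes that rose, and the 3 blue points are Apob, Mttp and Abca1, which fell.

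SREBP binds sterol regulatory elements and acts with the factor NF-Y, which binds CCAAT. RefSeq promoter windows of 300 bases (250 before the start of transcription and 50 after it, build GRCm38.p6) were matched by symbol for 29 of the 35 genes, some with more than 1 window. Both strands were searched for TCACNCCA, a core of the sterol regulatory element, for CCAAT, for the GC box GGGCGG that the partner factor Sp1 binds, and for a loose spelling of the LXR direct repeat. These spellings were kept from a larger number tried, and the last because it matches a site in Abca1, so their shares are only a description. The synthesis enzymes had 18 windows from 15 genes, and the other members had 22 windows from 14 genes. No window was found for Fdps or for Fdft1 and Sqle, which rose. CCAAT was present in 14 of 18 windows of the synthesis enzymes (77.8%) and 8 of 22 windows of the other members (36.4%). It was present in 37.4% of all 32851 windows. TCACNCCA was present in 2 of 18 windows of the enzymes, 2 of 22 of the other members and 4.36% of all windows. GGGCGG was present in 15 of 18 windows of the enzymes, 13 of 22 of the other members and 35.7% of all windows. The LXR repeat was in 0 of 18 windows of the enzymes, in 2 of 22 of the other members and in 0.207% of all windows. Letters in a window are a description and not a bound site.

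The next 4 windows were chosen after the values were seen. Hmgcs1 holds the sterol element core as well as CCAAT and did not pass the test, Msmo1 and Nsdhl rose, and Abca1 fell. They lie at chr13:119690101-119690400 (plus strand), chr8:64733529-64733828 (minus strand), chrX:72918271-72918570 (plus strand) and chr4:53159846-53160145 (minus strand) in GRCm38.p6. Capitals mark the sterol element core, the CCAAT box and the LXR repeat on either strand, so that CCAAT on the other strand reads ATTGG. The GC box is not marked.
Hmgcs1: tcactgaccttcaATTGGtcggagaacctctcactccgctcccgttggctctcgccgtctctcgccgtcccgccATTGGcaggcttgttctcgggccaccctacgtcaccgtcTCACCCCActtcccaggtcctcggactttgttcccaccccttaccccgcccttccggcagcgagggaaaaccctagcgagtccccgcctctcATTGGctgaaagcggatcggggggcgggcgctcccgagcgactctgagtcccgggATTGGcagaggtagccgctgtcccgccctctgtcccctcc
Msmo1: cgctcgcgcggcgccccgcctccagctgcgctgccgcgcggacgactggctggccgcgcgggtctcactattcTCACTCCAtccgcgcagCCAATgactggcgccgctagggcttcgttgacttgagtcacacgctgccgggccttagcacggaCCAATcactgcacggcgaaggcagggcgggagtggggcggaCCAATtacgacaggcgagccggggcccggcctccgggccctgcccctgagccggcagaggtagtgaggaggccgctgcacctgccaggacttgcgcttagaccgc
Nsdhl: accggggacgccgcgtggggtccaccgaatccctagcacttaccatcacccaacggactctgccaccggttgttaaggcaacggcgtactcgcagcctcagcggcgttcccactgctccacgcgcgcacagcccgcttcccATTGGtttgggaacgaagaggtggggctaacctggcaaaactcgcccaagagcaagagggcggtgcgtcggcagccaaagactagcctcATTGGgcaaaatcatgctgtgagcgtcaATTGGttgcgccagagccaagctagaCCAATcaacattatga
Abca1: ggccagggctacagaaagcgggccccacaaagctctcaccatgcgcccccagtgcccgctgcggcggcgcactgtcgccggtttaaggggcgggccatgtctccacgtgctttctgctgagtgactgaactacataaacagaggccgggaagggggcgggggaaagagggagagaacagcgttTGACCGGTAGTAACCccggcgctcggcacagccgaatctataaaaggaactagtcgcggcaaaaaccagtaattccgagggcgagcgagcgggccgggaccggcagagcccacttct
In the Hmgcs1 window TCACCCCA begins 137 bases before the start, with 4 CCAAT in the window. The Msmo1 window has TCACTCCA beginning 177 bases before the start and 3 CCAAT. The Nsdhl window has 4 CCAAT and no TCACNCCA. The Abca1 window has the LXR repeat 67 bases before the start, read on the other strand.

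The first steps, from acetyl-CoA to farnesyl diphosphate, held 1 risen enzyme of 7, a split of the pathway made after the values were seen. Pmvk, phosphomevalonate kinase (ENSMUSG00000027952, chromosome 3, 89361848 to 89376320 in mm39, as for all gene positions below), had 268, 258 and 191 in KC-Tie2 replicates 1 to 3, against 142, 123 and 138 in Control replicates 1 to 3. Every KC-Tie2 library was above every Control library, with KC-Tie2 replicate 3 the nearest to Control (log2 fold change 0.81 ± 0.16, limma adjusted p = 0.0278). Its neighbour in the pathway, the mevalonate kinase gene Mvk, had 346, 367 and 249 in KC-Tie2 and 197, 210 and 215 in Control kidneys. The groups of Mvk did not overlap either, and its log2 fold change of 0.61 ± 0.15 missed the threshold (limma adjusted p = 0.0684). The farnesyl diphosphate synthase gene Fdps had 379, 489 and 383 in KC-Tie2 and 270, 336 and 269 in Control kidneys, again without overlap (0.51 ± 0.13, limma adjusted p = 0.0794).

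The other 4 early enzymes had overlapping groups. Hmgcs1, the cytosolic HMG-CoA synthase, had 8156, 9787 and 11539 in KC-Tie2 and 10978, 9693 and 10275 in Control kidneys. KC-Tie2 replicate 1 lay below the Control libraries, replicate 2 among them and replicate 3 above them (log2 fold change -0.08, 95% interval -0.34 to 0.17, limma adjusted p = 0.804). Idi1, the isopentenyl diphosphate isomerase, had 1333, 1580 and 2099 in KC-Tie2 and 2209, 1591 and 2166 in Control kidneys (-0.26, 95% interval -0.79 to 0.26). The cytosolic thiolase gene Acat2 and the decarboxylase gene Mvd had log2 fold changes of 0.06 (95% interval -0.14 to 0.26) and -0.01 (-0.18 to 0.16). In KC-Tie2 kidneys Hmgcs1 and Idi1 were highest in replicate 3, whereas Mvk and Pmvk were lowest there. Idi1 is uncertain because pseudogene copies can take its reads, and Idi1-ps1 alone had 322 to 452 in KC-Tie2 and 365 to 454 in Control kidneys.

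From squalene onwards 5 of 11 enzymes rose. Fdft1, squalene synthase and the first enzyme committed to sterols (ENSMUSG00000021273, chromosome 14, 63382599 to 63417027), had 561, 664 and 594 in KC-Tie2 and 383, 422 and 377 in Control kidneys (log2 fold change 0.62 ± 0.09, limma adjusted p = 0.0111). The groups of Fdft1 were well apart. Its last 774 bases overlap the cathepsin gene Ctsb on the other strand, which had 10844, 12509 and 10395 in KC-Tie2 and 9426, 8557 and 8628 in Control kidneys (0.34 ± 0.08, limma adjusted p = 0.0748). Whether counting used strand is not stated in the labels, so reads of the overlap cannot be told apart.

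Sqle, the squalene epoxidase and a rate-limiting step of the later pathway (ENSMUSG00000022351, chromosome 15, 59186926 to 59203041), had 1997, 2391 and 2107 in KC-Tie2 and 1527, 1540 and 1526 in Control kidneys. Control libraries were nearly equal, and all KC-Tie2 libraries were above them (log2 fold change 0.50 ± 0.08, limma adjusted p = 0.011). Msmo1, the methylsterol monooxygenase that acts after Cyp51 in removing the methyl groups of lanosterol (ENSMUSG00000031604, chromosome 8, 65171173 to 65186826), had 583, 751 and 745 in KC-Tie2 and 429, 462 and 409 in Control kidneys (0.67 ± 0.11, limma adjusted p = 0.0139). Nsdhl, the dehydrogenase that acts after it (ENSMUSG00000031349, chromosome X, 71962163 to 72002120), had 948, 1075 and 1113 in KC-Tie2 and 740, 790 and 848 in Control kidneys (0.40 ± 0.08, limma adjusted p = 0.041). In both genes the KC-Tie2 library nearest to Control was replicate 1. Dhcr7, the reductase of the last step to cholesterol (ENSMUSG00000058454, chromosome 7, 143376882 to 143402147), had 568, 699 and 617 in KC-Tie2 and 445, 465 and 484 in Control kidneys (0.43 ± 0.09, limma adjusted p = 0.0452).

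The other 6 late enzymes did not pass. Lanosterol synthase, Lss, had 756, 745 and 703 in KC-Tie2 and 671, 666 and 647 in Control kidneys, a narrow gap without overlap (log2 fold change 0.15, 95% interval -0.01 to 0.31, limma adjusted p = 0.362). The lanosterol demethylase gene Cyp51 had 4246, 5302 and 5420 in KC-Tie2 and 5013, 4312 and 4851 in Control kidneys, with overlap (0.07, 95% interval -0.14 to 0.29). The sterol isomerase gene Ebp had 970, 959 and 1071 in KC-Tie2 and 1149, 1063 and 1141 in Control kidneys (-0.16, 95% interval -0.32 to -0.00, limma adjusted p = 0.323). The ketoreductase gene Hsd17b7, the desaturase gene Sc5d and the reductase gene Tm7sf2 had log2 fold changes of -0.14, -0.13 and 0.20 with overlapping groups.

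**Figure D2:**
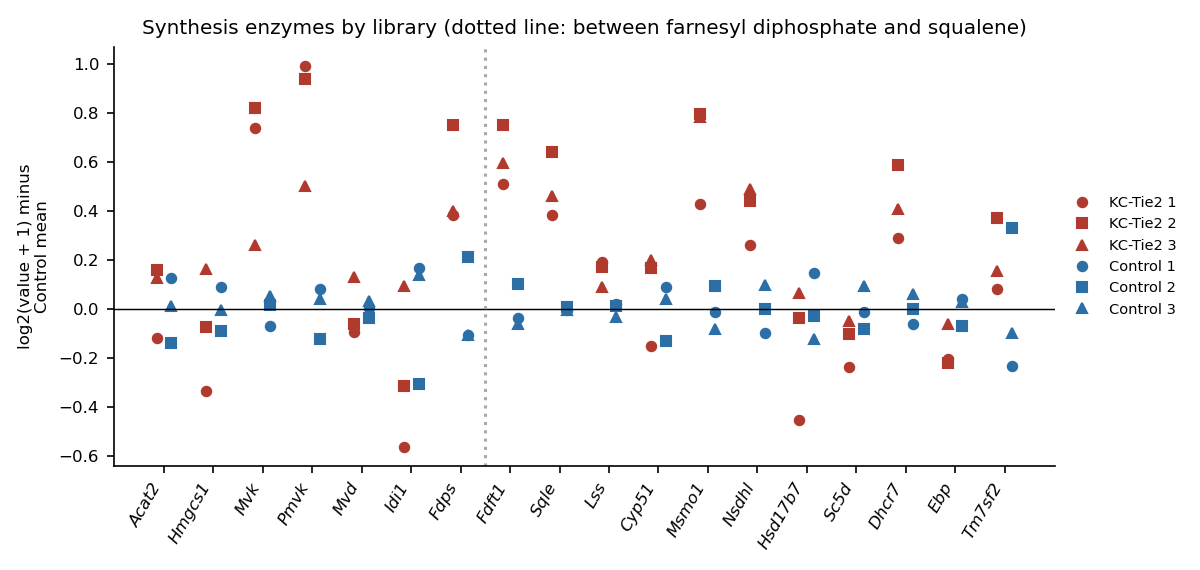
Each of the 18 synthesis enzymes (x axis) in each of the 6 libraries, as log2(value + 1) minus the mean of the 3 Control libraries (y axis), with KC-Tie2 left of Control at each gene. The 9 enzymes whose KC-Tie2 libraries all lie above Control lie on both sides of the dotted line, as do the 9 whose groups overlap, such as Hmgcs1 and Cyp51.

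Over the 18 enzymes, the 3 KC-Tie2 libraries all lay above Control at 9 and all below at 0, where 9.96% of all genes tested lay above and 10% below. The median deviation of the enzymes from the Control mean, on the log2 scale, was 0.14, 0.27 and 0.18 in KC-Tie2 replicates 1 to 3 and 0.00, -0.01 and 0.02 in Control replicates 1 to 3. All 3 KC-Tie2 libraries lay above the 3 Control libraries, replicate 2 the highest. In the authors' deposited table, which compares KC-Tie2 with a group headed WT, 8 of the 18 enzymes were higher at an FDR under 0.05, against 1.83% of all genes higher and 3.91% called in either direction. The 8 were the 6 above together with Mvk (FDR 0.0129) and Fdps (FDR 0.0328 in the authors' deposited table). The count of risen enzymes was 3, 0 and 5 without KC-Tie2 replicate 1, 2 and 3 and 0, 5 and 0 without Control replicate 1, 2 and 3. Those called were Fdft1, Msmo1 and Sqle without KC-Tie2 replicate 1, the same genes with Pmvk and Mvk without KC-Tie2 replicate 3, and the same genes with Pmvk and Fdps without Control replicate 2. Nsdhl and Dhcr7 were called in none of these fits. All genes called numbered 69, 48 and 682 without KC-Tie2 replicate 1, 2 and 3 and 51, 530 and 54 without Control replicate 1, 2 and 3.

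**Figure D3:**
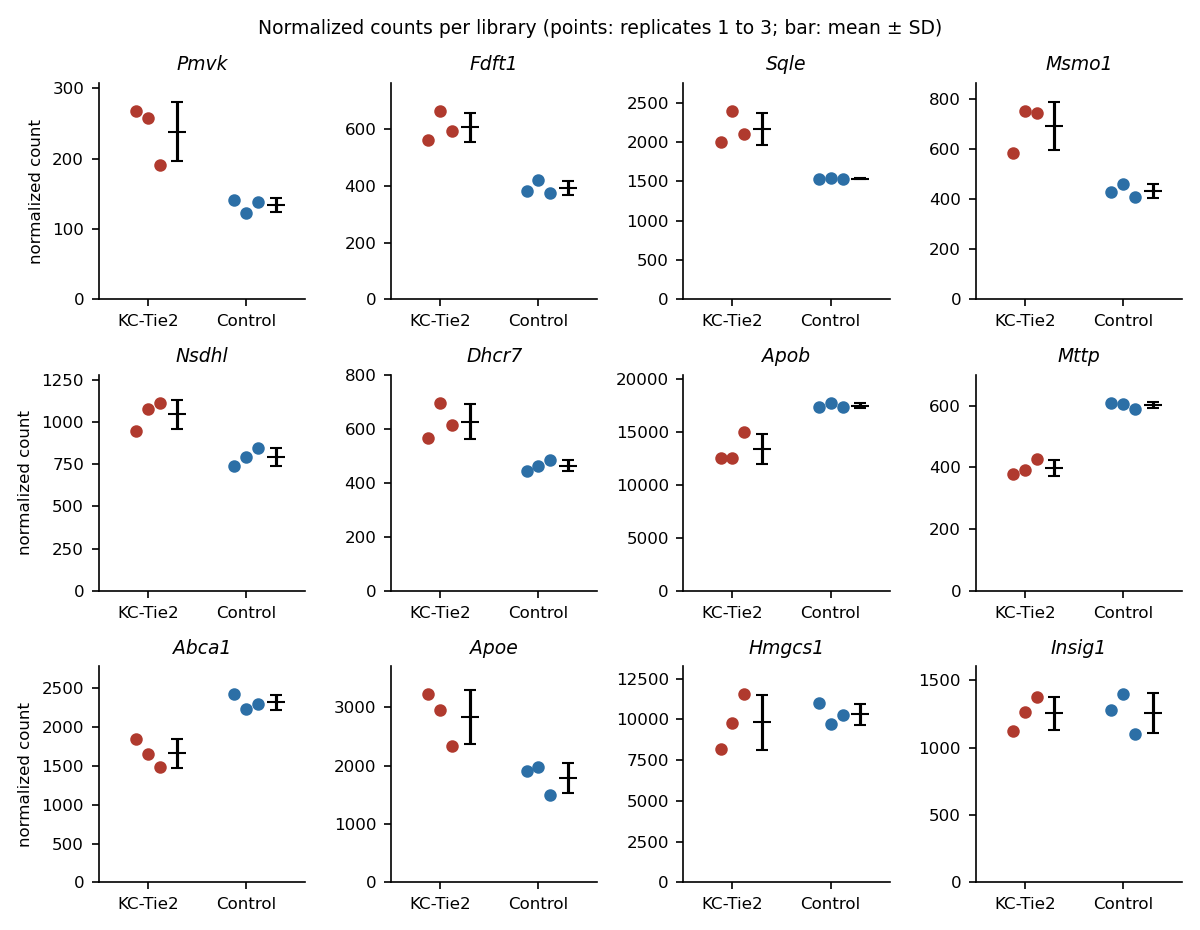
Normalized counts (y axis, from 0) of 12 of the 35 genes, chosen after their values were seen, in each library, with KC-Tie2 left of Control, and the mean ± SD of 3 libraries as a bar. The 6 enzymes that rose, the 3 genes that fell and Apoe show no overlap, whereas Hmgcs1 and Insig1 do.

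None of the 5 sterol sensors passed. Srebf2, whose SREBP form drives cholesterol synthesis, had 2827, 3083 and 2785 in KC-Tie2 and 2377, 2631 and 2472 in Control kidneys. The KC-Tie2 libraries were all above Control, by a log2 fold change of 0.22 ± 0.07 (limma adjusted p = 0.161). Insig1, itself a target of SREBP and the brake on its release, had 1125, 1264 and 1375 in KC-Tie2 and 1277, 1397 and 1098 in Control kidneys. The groups of Insig1 overlapped fully (-0.00, 95% interval -0.22 to 0.22). Insig2 and the escort gene Scap had log2 fold changes of -0.03 (95% interval -0.22 to 0.17) and -0.10 (-0.26 to 0.06). Srebf1, whose SREBP form mainly drives fatty acid synthesis, had 1379, 1431 and 1342 in KC-Tie2 and 1259, 1839 and 1082 in Control kidneys, so the spread lay within Control.

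Genes of uptake and movement inside the cell did not pass either, at 4 of 4. Stard4, a cytosolic sterol carrier and SREBP target, had 1740, 2154 and 2059 in KC-Tie2 and 2095, 1780 and 1944 in Control kidneys (log2 fold change 0.03, 95% interval -0.17 to 0.23). Npc1 and Npc2, which pass cholesterol out of lysosomes, had log2 fold changes of 0.10 and 0.08, with 95% intervals of -0.06 to 0.27 and -0.08 to 0.24. Mylip, the LXR-induced ligase that sends lipoprotein receptors to degradation, had 998, 912 and 1219 in KC-Tie2 and 850, 1040 and 758 in Control kidneys (0.24, 95% interval -0.07 to 0.56). All 4 groups of values overlapped.

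Of the 3 lipoprotein genes 2 fell. Mttp, the microsomal protein that loads lipid onto Apob (ENSMUSG00000028158, chromosome 3, 137795615 to 137850729), had 377, 392 and 427 in KC-Tie2 and 609, 604 and 590 in Control kidneys. It fell 1.51-fold, with the groups far apart (log2 fold change -0.59 ± 0.09, limma adjusted p = 0.00861). Apob, the core protein of very low density lipoprotein (ENSMUSG00000020609, chromosome 12, 8027648 to 8066835), had 12565, 12574 and 14999 in KC-Tie2 and 17301, 17740 and 17329 in Control kidneys. It fell 1.31-fold, KC-Tie2 replicate 3 lying nearest to Control (-0.39 ± 0.08, limma adjusted p = 0.0438). Apoe, the apolipoprotein that receptors recognise, had 3226, 2959 and 2331 in KC-Tie2 and 1908, 1974 and 1502 in Control kidneys. Its groups did not overlap, and its log2 fold change of 0.66 ± 0.15 missed the threshold (limma adjusted p = 0.0814). The authors' deposited table called Apoe higher (FDR 4.68e-05). In the authors' deposited table Mttp, Apob and Abca1 were the 3 of the 17 genes called lower, against 2.08% of all genes. Mttp overlaps Trmt10a on the other strand by 1521 bases, and Trmt10a had 105, 76.0 and 85.3 in KC-Tie2 and 112, 101 and 94.7 in Control kidneys (log2 fold change -0.21 ± 0.18).

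Among the genes of esterification, export and LXR, 1 of 5 fell. Abca1, the transporter that hands cholesterol to apolipoproteins outside the cell (ENSMUSG00000015243, chromosome 4, 53030787 to 53159895), had 1851, 1653 and 1484 in KC-Tie2 and 2424, 2232 and 2301 in Control kidneys. All KC-Tie2 libraries were below Control, a 1.40-fold fall (log2 fold change -0.48 ± 0.08, limma adjusted p = 0.0172). The other exporter, Abcg1, had 601, 327 and 327 in KC-Tie2 and 340, 470 and 221 in Control kidneys, so neither genotype was uniform (0.29, 95% interval -0.72 to 1.29). Soat1, which stores cholesterol as esters, had 751, 933 and 958 in KC-Tie2 and 1022, 1038 and 969 in Control kidneys, lower without overlap and not called (-0.21 ± 0.09, limma adjusted p = 0.325). The LXR genes Nr1h2 and Nr1h3 had log2 fold changes of 0.12 ± 0.07 and -0.13 ± 0.08 (limma adjusted p = 0.443 and 0.444), each with groups that did not overlap.

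Over the 17 genes that are not synthesis enzymes, KC-Tie2 libraries lay all above Control at 3 (17.6%) and all below at 5 (29.4%), where 9.96% of all genes tested lay above and 10% below. The median deviation of these genes on the log2 scale was -0.11, 0.01 and -0.01 in KC-Tie2 and 0.02, 0.03 and -0.01 in Control kidneys, so the groups overlapped. Called genes numbered 2, 0 and 4 without KC-Tie2 replicate 1, 2 and 3 and 0, 2 and 1 without Control replicate 1, 2 and 3, where all genes called were the 69, 48 and 682 and the 51, 530 and 54 given above. Abca1 and Mttp were those called without KC-Tie2 replicate 1 and without Control replicate 2. Without KC-Tie2 replicate 3 they were joined by Apob and Apoe, and without Control replicate 3 only Mttp was called. Apob was called in none of the other fits with 1 library left out.

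Markers of cell types were summed beside these results. Of 12 proximal tubule markers, 9 were below 0 and none was called, and they summed to 328400, 365359 and 376992 in KC-Tie2 and 409539, 389407 and 412079 in Control kidneys. The groups of these sums did not overlap, as for Apob, Mttp and Abca1, and most of each sum came from Lrp2 and Slc34a1. By gene, 7 of the 12 lay below Control without overlap, 2 lay above it (Slc5a12 and Slc7a7) and 3 overlapped. The shares of all genes tested were 10% below and 9.96% above. In whole kidney, fewer cells of a type and less RNA per cell cannot be told apart. Macrophages express Apoe and Abca1, and 14 of 15 macrophage markers were above 0, 3 of them risen (C1qa, C1qb and C1qc). Among the 17539 genes tested, 8823 were above 0, 8716 were below 0 and 0.855% rose. By gene, 8 of the 15 lay above Control without overlap and 7 overlapped, among them Adgre1, Cd68, Csf1r and Cd163. The 15 summed to 6423, 8430 and 5720 in KC-Tie2 and 4043, 5290 and 4864 in Control kidneys, without overlap. Cd74 gave the largest part of each sum. Of 10 markers of other nephron segments and the glomerulus, 9 were above 0 and none was called, and they summed to 135397 to 169266 in KC-Tie2 and 130073 to 134190 in Control kidneys, also without overlap. Taken singly, 7 of these 10 lay above Control without overlap (70%, against 9.96% of all genes tested) and 3 overlapped. Umod, whose groups overlapped, gave the largest part of each sum. Of 10 hepatocyte markers, 5 were tested and none was called, with 4 below 0 and 1 above. They summed to 15782 to 18658 in KC-Tie2 and 17656 to 28444 in Control kidneys, most of it from Cyp2e1. Alb, the albumin gene, had 69.9 to 102 in KC-Tie2 and 114 to 136 in Control kidneys, lower without overlap. Ttr was also lower without overlap, with 837 to 1019 in KC-Tie2 and 1250 to 2245 in Control kidneys. Serpina1a, a protease inhibitor gene, was higher without overlap, with 806 to 1195 in KC-Tie2 and 581 to 731 in Control kidneys. Of 10 adrenal cortex markers, 3 were tested and summed to 195 to 214 in KC-Tie2 and 171 to 203 in Control kidneys. The part of these cell types in the results was not tested.

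Adipocyte markers separated 1 library of each genotype from the rest. The 8 tested summed to 3182, 673 and 722 in KC-Tie2 and 4639, 874 and 697 in Control kidneys, so replicate 1 of each was high. Adipoq, the adiponectin gene, had 142, 2.50 and 9.98 in KC-Tie2 and 214, 28.1 and 5.41 in Control kidneys. Abcg1 was highest in KC-Tie2 replicate 1 but not high in Control replicate 1. With both replicate 1 libraries left out, 1 enzyme rose (Msmo1), none of the other 17 genes was called, and 20 genes were called in all. The median log2 fold change of the enzymes was then 0.22.

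**Figure D4:**
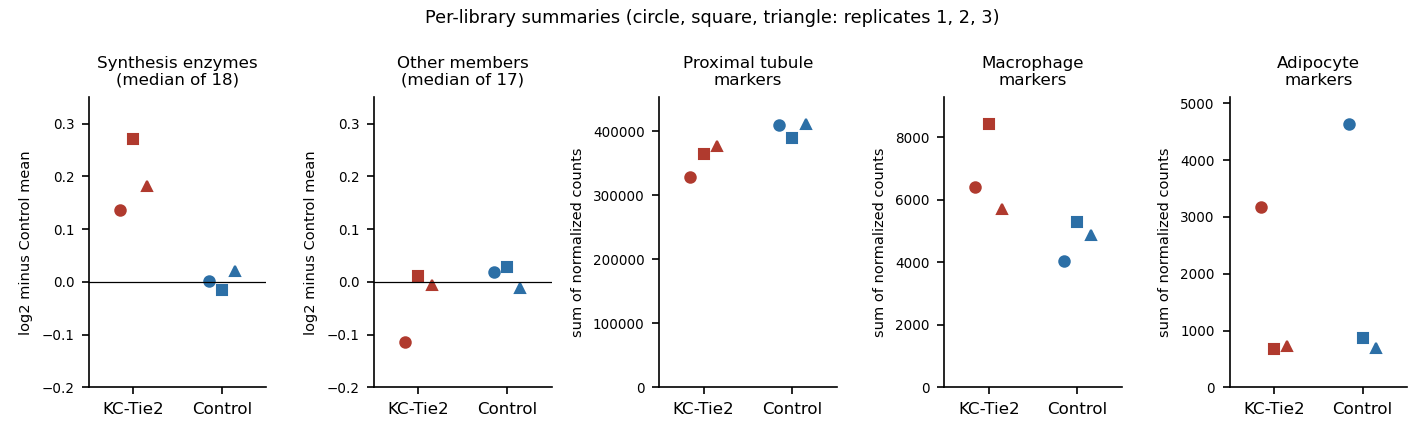
Values of the 6 libraries by genotype, KC-Tie2 left of Control. The first 2 panels show the median log2 deviation from the Control mean of the 18 enzymes and the 17 other genes, and the last 3 show summed normalized counts of markers of proximal tubule, macrophages and adipocytes. The enzymes, the proximal tubule sums and the macrophage sums separate the genotypes, and the adipocyte sums separate replicate 1 of each genotype from the other libraries.

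Further genes of the same pathways were counted from wider lists. Of 10 other genes listed under sterol and isoprenoid synthesis, none was called (median log2 fold change -0.09). The nearest were Dhdds, a subunit of the enzyme that makes dolichol (976, 967 and 1092 in KC-Tie2, 1355, 1193 and 1311 in Control kidneys, limma adjusted p = 0.0505), and the mitochondrial thiolase gene Acat1 (5976, 6299 and 7910 in KC-Tie2, 9570, 8260 and 11099 in Control kidneys, limma adjusted p = 0.101). Both lay below Control without overlap. Acat1 encodes the mitochondrial enzyme and not the cytosolic one of the sterol pathway, which is Acat2. Of 14 genes that process SREBP or degrade sterol enzymes, none was called (median -0.09), the nearest being the ubiquitin-conjugating enzyme gene Ube2g2 (558, 498 and 517 in KC-Tie2, 406, 464 and 451 in Control kidneys, limma adjusted p = 0.203) and the ubiquitin ligase gene Marchf6 (5474, 5801 and 6057 in KC-Tie2, 6770, 5861 and 6842 in Control kidneys, limma adjusted p = 0.354). Of 22 tested genes of lipoproteins, esters, export and oxysterols none was called (median -0.07), the nearest being Ces1d, a lipid-hydrolysing carboxylesterase (2766, 2394 and 3670 in KC-Tie2, 6614, 4999 and 5926 in Control kidneys, limma adjusted p = 0.0531), and the lipid transporter gene Abca7 (746, 749 and 667 in KC-Tie2, 466, 605 and 533 in Control kidneys, limma adjusted p = 0.0594).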

How the data were processed

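RNA was sequenced as 3 libraries from KC-Tie2 kidneys and 3 from Control kidneys, grouped by sample title and matched to columns by library name. The deposited expression values are a signal, normalized counts. The submitters' processing notes name mm39 as the build, and DESeq2, STAR and Partek 12.5.0 among the authors' software. The sources used here do not give their roles, the annotation, the strand setting or any filter. Of values under 60, 68.5% to 70.9% lay within 0.01 of a multiple of 1 step per library (0.826 to 1.353), so whole reads were not recovered. The second deposited table gives the authors' p-value and FDR, the ratio of KC-Tie2 to WT and a signed fold score, and was counted, not retested. Gene ends are 1 base before the listed stop.

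A linear model of log2(value + 1) was run in R 4.3.3 through limma 3.58.1 (eBayes with trend and robust) for genes with a mean of at least 10, two-sided, with Benjamini-Hochberg adjustment over all genes tested and a threshold of 0.05. The fit was tested on simulated data. Members, lists and tests were chosen with earlier results of these data known. All members are accounted for, and of each wider list up to 4 called genes with the largest change are named, or the 2 with the smallest p. Ctsb, Trmt10a, Idi1-ps1 and the marker genes named fall outside this rule and were chosen after their values were seen. The result of 1 wider list, on uptake and transport, is not reported here. Tried besides were quantile normalization and TMM scaling (trimmed mean of M values), pseudocounts of 0.5 and 5, a filter at a mean of 100 and none, voom, library weights, a replicate block, eBayes without robust, and each library left out. Leaving out both replicate 1 libraries was chosen after seeing the data. Python 3.11.15, pandas 2.3.3, numpy 2.4.6 and matplotlib 3.10.9 were used for counts and figures.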

Additional observations from a re-analysis of the deposited data

How the results depend on the processing

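All 9 called genes kept their direction in all 17 alternatives. The 6 risen enzymes and 3 fallen genes were counted the same with pseudocounts of 0.5 and 5, no filter and TMM. Apob lost its call with a mean of at least 100, quantile normalization and eBayes without robust, and Nsdhl and Dhcr7 lost theirs with eBayes without robust and voom. With 1 library left out, Apob was called in 1 of 6 fits, Abca1 in 3 and Mttp in 4. Over all 17 alternatives Apob was called in 8, Abca1 in 13 and Mttp in 14. Genes called in all, 297 in the main analysis, numbered 581 with the replicate block, 549 with library weights, 48 to 682 with 1 library left out and 20 without both replicate 1 libraries. Called enzymes numbered 0 to 5 with 1 library left out and 1 without both replicate 1 libraries, and other members 0 to 4 and 0. Called genes of the wider lists, 3 in the main analysis, numbered 5 with quantile normalization, 11 with the block, 10 with library weights, 0 to 11 with 1 library left out and 0 without both replicate 1 libraries. The cause of these changes was not tested.

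The labels do not say whether same-numbered replicates are pairs, and the correlations that follow cannot decide it. Deviations from the group means of same-numbered libraries correlated across genes at 0.18, -0.10 and 0.02 for replicates 1, 2 and 3. Between libraries of different number the correlations ran from -0.28 to 0.26. With the replicate block 8 enzymes and 4 other members were called, Mvk, Fdps and Apoe being added. The lowest value of any member was 123, and precision is limited by having 3 libraries a genotype.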

Other observations

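A list of SREBP targets, most but not all of them genes of fatty acid synthesis, was mixed. Of 19 tested, 1 rose (5.26%) and 1 fell (5.26%), with a median log2 fold change of 0.10. The shares of all genes tested were 0.855% higher and 0.838% lower. KC-Tie2 libraries lay all above Control at 4 of the 19 (21.1%) and all below at 2 (10.5%). For all genes tested these shares were 9.96% and 10%. Fads1, a desaturase of polyunsaturated fatty acids, had 3104, 3590 and 3317 in KC-Tie2 and 2377, 2459 and 1955 in Control kidneys (log2 fold change 0.56 ± 0.09, limma adjusted p = 0.0159). Me1, the malic enzyme that supplies NADPH, had 5842, 5507 and 7352 in KC-Tie2 and 8714, 8181 and 9481 in Control kidneys (-0.50 ± 0.11, limma adjusted p = 0.0435). Neither pair of groups overlapped. The calls of both were lost without KC-Tie2 replicate 2 or Control replicate 1 or 3, and that of Me1 also without KC-Tie2 replicate 1. Fasn, fatty acid synthase, was chosen after its values were seen. It had 9740, 4241 and 4211 in KC-Tie2 and 5887, 4068 and 3710 in Control kidneys, highest in replicate 1 of each genotype, the libraries with high adipocyte markers. The part of adipose tissue in the values of Fasn was not tested.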
